A study of Mus musculus with 6 samples.

Results

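The 7 genes *Slc12a2*, *Slc12a4*, *Slc12a7*, *Atp1b1*, *Atp1b3*, *Wnk1* and *Stk39* of chloride and sodium transport were followed in cultures from the stria vascularis, the vascular tissue of the cochlear lateral wall. The study describes these cultures as endothelial. The genes were found by gene symbol in the deposited count table and made up 7 of its 24421 genes. *Slc12a2* encodes NKCC1, which carries sodium, potassium and chloride into the cell. *Slc12a4* and *Slc12a7* encode KCC1 and KCC4, which carry potassium and chloride out. *Atp1b1* and *Atp1b3* encode beta subunits of the sodium pump, and *Wnk1* and *Stk39* encode the kinases WNK1 and SPAK.

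The cultures came from mice of postnatal days 10 to 12, either wildtype or *Nhe6*-knockout, in which the gene of the endosomal sodium-proton exchanger NHE6 is disrupted. Each genotype had 3 untreated cultures with 1 library each. The labels give a C57BL/6N background for both genotypes, whereas the study's methods name C57BL/6J. The methods state that each culture pooled at least 6 mice and was grown from dissociated tissue (stria with spiral ligament), passaged and sorted, and the sex of the mice was not given. The disruption is the targeted tm1Dgen allele, carried by every cell of the animal and not limited to endothelium.

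The sodium pump exports sodium in exchange for potassium and sets up the gradients that the cation-chloride cotransporters use. Cell shrinkage or low intracellular chloride activates WNK kinases. They phosphorylate SPAK and the related kinase OSR1, and these in turn switch NKCC1 on and the potassium-chloride cotransporters off. In the stria vascularis, NKCC1 and the sodium pump of the marginal cells take up potassium on its way to the endolymph, the potassium-rich fluid of the cochlear duct. The study asked how NHE6 bears on the strial blood barrier, and the comparison of genotypes here asks whether RNA of this transport system differed with it.

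Genes took 25587097 to 29126232 counted reads in each library, and each of the 7 genes had 1714 to 43287 of them. Wildtype replicate 2 stood apart from the other 5 libraries, at 80.1 on the first principal component (50.1% of the variance) against -20.3 to -6.04. *Nhe6*-knockout replicates 1 and 2 differed by a chi-square of 4.86 per gene, where sampling noise gives 1 and the other pairs of libraries had 88.1 to 392. They were kept separate because the labels list them as replicates, but whether they were independent cultures was not tested. Results are also given with their counts summed. Of 14 endothelial markers, 7 averaged 100 normalized counts or more, among them *Emcn* (409 to 18385), *Eng* (866 to 5079), *Cd34* (793 to 4864) and *Flt1* (378 to 3174). *Cdh5* had 179 to 232 in *Nhe6*-knockout and 2508 to 5198 in wildtype cells. In contrast, *Cldn5* was at 0 in every library, and *Tie1* had at most 2.14, *Pecam1* 7.82, *Erg* 15.5 and *Vwf* 23.2. Each of the 10 fibroblast markers averaged 100 normalized counts or more, and *Col1a2* alone had 87306 to 186223. In bulk RNA, fewer cells of a type and less RNA per cell cannot be told apart.

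In edgeR's quasi-likelihood test of the genotypes on all 6 libraries, none of the 7 genes was called (0 of 7 with a Benjamini-Hochberg adjusted p under 0.05). Over all 13479 genes tested the same rule called 9, or 0.0668%, so a gene that was not called may still differ. At an unadjusted p under 0.05, the test gave 1 of the 7 (*Slc12a2*, lower in *Nhe6*-knockout cells) and 1596 of all genes. DESeq2 also called 0 of the 7, where it called 4.69% of all genes. The *Nhe6*-knockout and wildtype counts did not overlap for 1 of the 7 genes, against 19.9% of all genes tested. Wildtype replicate 2 held the lowest count of both *Atp1b3* and *Stk39*. Without that library, which left 2 wildtype libraries, edgeR called 2 of the 7 (these 2 genes, both lower in *Nhe6*-knockout cells). It called 2.88% of all genes, 173 lower and 222 higher. The counts then did not overlap for 4 of the 7 genes (*Slc12a2*, *Atp1b3* and *Stk39* lower, *Slc12a7* higher), against 38.2% of all genes. The median log2 fold change of the 7 genes was -0.43 with all libraries and 0.03 without wildtype replicate 2, and over all genes it was -0.02 and 0.00029.

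**Figure D1:**
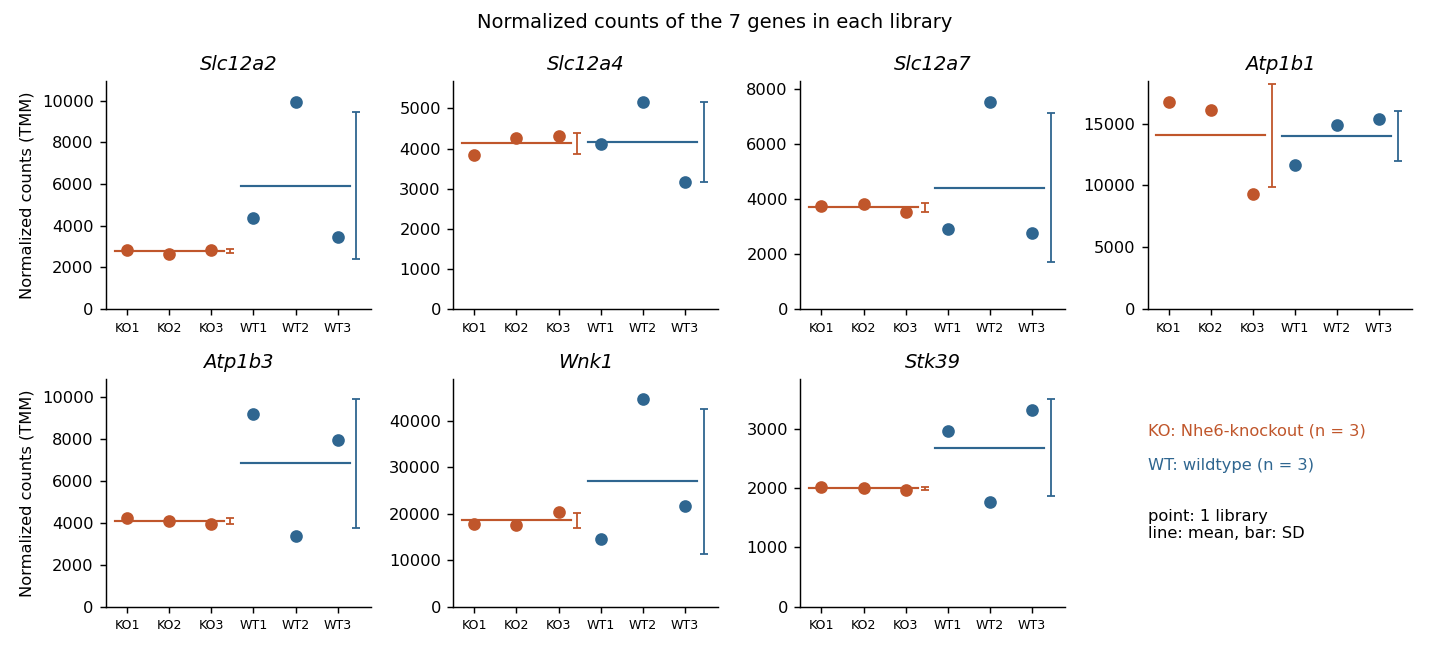
Normalized counts (TMM, y axes from 0) of the 7 genes in each of the 3 *Nhe6*-knockout (KO) and 3 wildtype (WT) libraries. Points are libraries, horizontal lines are means and vertical bars are SDs over 3 libraries. *Slc12a2*, *Slc12a4*, *Slc12a7* and *Wnk1* were highest in WT2, *Atp1b3* and *Stk39* were lowest there, and *Slc12a4* was lowest in WT3. The wildtype bars are wider than the *Nhe6*-knockout bars for every gene but *Atp1b1*.

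*Slc12a2* (GRCm38, chromosome 18, 57878678 to 57946821, plus strand) had 2849, 2669.9 and 2836 normalized counts in *Nhe6*-knockout replicates 1 to 3. In wildtype replicates 1 to 3 it had 4357, 9955 and 3465. The *Nhe6*-knockout cultures lay close together and all below the wildtype cultures, which spread widely because of replicate 2. The log2 fold change of *Nhe6*-knockout over wildtype was -1.09 (standard error, SE, 0.39, 95% confidence interval -2.04 to -0.14, adjusted p = 0.360 in edgeR's quasi-likelihood test), and the exact two-sided permutation p was 0.1, the smallest that 3 against 3 allows. With wildtype replicate 2 left out, the log2 fold change was nearer to 0, at -0.49 (SE 0.13, adjusted p = 0.120). With the counts of *Nhe6*-knockout replicates 1 and 2 summed to 1 library, it was -1.09 (SE 0.495, unadjusted p = 0.0745, adjusted p = 0.871 in edgeR). Leaving out wildtype replicate 2 as well gave -0.487 (SE 0.185, adjusted p = 0.387). The study reported lower *Slc12a2* expression in *Nhe6*-knockout endothelial cells, and lower NKCC1 protein by immunofluorescence and western blot.

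The potassium-chloride cotransporters, which move these ions the opposite way, gave no such order. *Slc12a4* (chromosome 8, 105943590 to 105966097, minus strand) had 3831, 4263 and 4304 normalized counts in *Nhe6*-knockout and 4121, 5165 and 3175 in wildtype cells. The genotypes overlapped, and the means of 4133 ± 262 and 4154 ± 995 (SD, n = 3 each) were nearly equal. For *Slc12a4* the log2 fold change was -0.01 (SE 0.19, 95% confidence interval -0.47 to 0.46, adjusted p = 0.990 in edgeR). An antisense gene, *Gm16156*, and *Mir7074* overlap *Slc12a4* in the annotation.

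*Slc12a7* (chromosome 13, 73733094 to 73816754, plus strand) had 3766, 3829 and 3519.9 normalized counts in *Nhe6*-knockout and 2918, 7539 and 2773 in wildtype cells. Wildtype replicate 2 was the highest library and the other wildtype replicates were the lowest, so every *Nhe6*-knockout value lay between them. Its log2 fold change was -0.25 (SE 0.40, 95% confidence interval -1.21 to 0.71, adjusted p = 0.859 in edgeR). The direction turned when wildtype replicate 2 was left out, to 0.38 (SE 0.11, adjusted p = 0.140), with every *Nhe6*-knockout culture above both remaining wildtype cultures.

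Between genes, RNA levels were compared as normalized counts per kilobase of exon, scaled to the library total. The length joined all annotated exons of a gene and can exceed that of a single transcript. It was 10.92 kb for *Slc12a2*, 4.279 kb for *Slc12a4* and 12.67 kb for *Slc12a7*, so the order of genes and their ratios depend on these lengths. On this scale *Slc12a4* was more abundant than *Slc12a2* or *Slc12a7* (mean 35.1 over 6 libraries, range 26.9 to 43.8). *Slc12a2* (14.5, range 8.88 to 33.1) and *Slc12a7* (11.6, range 7.95 to 21.6) had overlapping ranges. The neuronal cotransporter gene *Slc12a5* reached at most 0.226, and the kidney cotransporter genes *Slc12a1* and *Slc12a3* at most 0.0455 and 0.0702. The summed *Slc12a4* and *Slc12a7* exceeded *Slc12a2* in every library.

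The ratio of *Slc12a2* to the summed *Slc12a4* and *Slc12a7*, chosen after values were seen, sets the importer against these exporters within a library. Per length it was 0.219, 0.188 and 0.202 in *Nhe6*-knockout and 0.334, 0.506 and 0.330 in wildtype replicates 1 to 3. The genotypes did not overlap, with means of 0.203 ± 0.0153 and 0.390 ± 0.1 (SD, n = 3 each). The log2 ratio of these means was -0.94, and without wildtype replicate 2 it was -0.71. No test was made of this ratio, because its numerator had already been tested and the choice of genes followed known results.

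**Figure D2:**
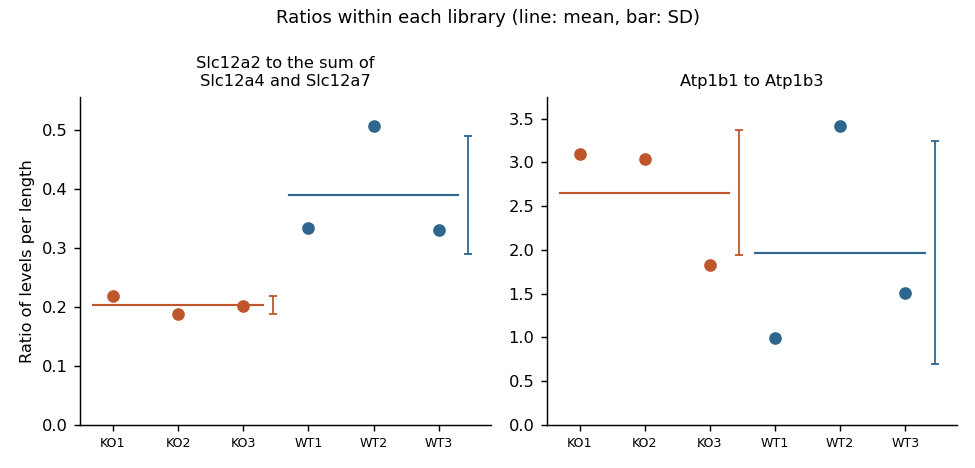
Ratios of levels per length within each library (y axes from 0) for *Slc12a2* over the sum of *Slc12a4* and *Slc12a7*, and for *Atp1b1* over *Atp1b3*. Points are libraries, lines are means and bars are SDs over 3 libraries. The first ratio lay between 0.188 and 0.219 in the *Nhe6*-knockout and between 0.330 and 0.506 in the wildtype libraries, whereas the genotypes overlapped for the second.

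The beta subunits of the sodium pump carry the catalytic alpha subunit to the plasma membrane, and beta1 also takes part in contacts between neighboring cells. The 250 bases before the RefSeq starts of *Atp1b1* and *Atp1b3* (GRCm38.p6, minus strand, 5′ to 3′) are shown because both genes encode subunits of the same pump. Capitals mark GC boxes (GGGCGG) and CCAAT boxes (CCAAT), searched on both strands. The *Atp1b1* window is chr1:164458356-164458605 and the *Atp1b3* window is chr9:96364432-96364681.
Atp1b1: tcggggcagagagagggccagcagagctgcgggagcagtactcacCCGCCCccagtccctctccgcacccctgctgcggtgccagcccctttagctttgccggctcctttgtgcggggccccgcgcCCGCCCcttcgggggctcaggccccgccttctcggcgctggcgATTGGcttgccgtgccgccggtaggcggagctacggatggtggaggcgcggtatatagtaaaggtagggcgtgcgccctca
Atp1b3: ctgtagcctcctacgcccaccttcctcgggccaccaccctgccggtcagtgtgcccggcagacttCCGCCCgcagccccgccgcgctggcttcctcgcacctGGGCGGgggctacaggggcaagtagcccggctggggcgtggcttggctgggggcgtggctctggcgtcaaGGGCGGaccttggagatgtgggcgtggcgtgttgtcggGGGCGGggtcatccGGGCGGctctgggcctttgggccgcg
The *Atp1b1* window held 2 GC boxes and 1 CCAAT box, and 70.4% of its bases were G or C. The *Atp1b3* window held 5 GC boxes and 0 CCAAT boxes at 73.6% G or C. Of 32851 RefSeq windows of the same length, 32.7% held a GC box and 33.8% a CCAAT box. These matches describe letters only, and no binding was measured.

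*Atp1b1* (chromosome 1, 164437109 to 164458355, minus strand) had 16767, 16107.5 and 9269 normalized counts in *Nhe6*-knockout and 11661, 14868 and 15381 in wildtype cells. *Nhe6*-knockout cultures held both the highest and the lowest of the 6 values, and replicate 3 was the low one. The means were 14048 ± 4152 and 13970 ± 2016 (SD, n = 3 each). For *Atp1b1* the log2 fold change was 0.01 (SE 0.26, 95% confidence interval -0.63 to 0.64, adjusted p = 0.990 in edgeR). The protein-coding gene *Nme7* overlaps *Atp1b1* on the opposite strand.

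*Atp1b3* (chromosome 9, 96332655 to 96364442, minus strand) had 4209, 4102 and 3920.2 normalized counts in *Nhe6*-knockout and 9165, 3376 and 7923 in wildtype cells. Wildtype replicates 1 and 3 were high, whereas wildtype replicate 2 lay below every *Nhe6*-knockout culture, so the genotypes overlapped. With all 6 libraries the log2 fold change was -0.74 (SE 0.35, 95% confidence interval -1.59 to 0.11, adjusted p = 0.476 in edgeR), and the exact permutation p was 0.4. Without wildtype replicate 2 it was -1.07 (SE 0.12, adjusted p = 0.0229). When the counts of *Nhe6*-knockout replicates 1 and 2 were also summed to 1 library, the value was -1.08 (SE 0.18) and the adjusted p was 0.143.

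Per length, *Atp1b1* was the highest of the 7 genes (mean 165 over 6 libraries, range 109 to 198), followed by *Atp1b3* (82.8, range 51.3 to 139). Their ranges overlapped. Within a library the ratio of *Atp1b1* to *Atp1b3* was 3.09, 3.04 and 1.83 in *Nhe6*-knockout and 0.987, 3.41 and 1.51 in wildtype cells. Wildtype replicate 2 was thus nearer to *Nhe6*-knockout replicates 1 and 2 than to the other wildtype cultures on this ratio. *Atp1b3* made up 20.8%, 21.1% and 29.0% of the beta subunit RNA in *Nhe6*-knockout and 36.1%, 21.0% and 30.4% in wildtype cells.

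*Atp1b2*, the third beta subunit gene, had 5241, 4912 and 4141 normalized counts in *Nhe6*-knockout and 12275, 2058 and 10588 in wildtype cells. The log2 fold change came to -0.80 (adjusted p = 0.665 in edgeR), and without wildtype replicate 2 it was -1.27 (adjusted p = 0.0239). *Atp1b2* is also known from strial marginal cells. The summed marker list of those cells, 9 genes with *Atp1b2* among them, was 4146 to 5246 in *Nhe6*-knockout and 12338, 2062 and 10629.5 in wildtype replicates 1 to 3, almost all of it *Atp1b2*. The defining markers *Kcne1* and *Bsnd* were at 0 in every library, and *Kcnq1* had at most 8.36 normalized counts. *Lmx1a*, a transcription factor gene on the list, had 1.06, 29.7 and 0 in *Nhe6*-knockout and 54.7, 1.03 and 40.6 in wildtype cells, so that wildtype replicates 1 and 3 were highest, as for *Atp1b2*. The part of marginal cells in these values was not tested.

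**Figure D3:**
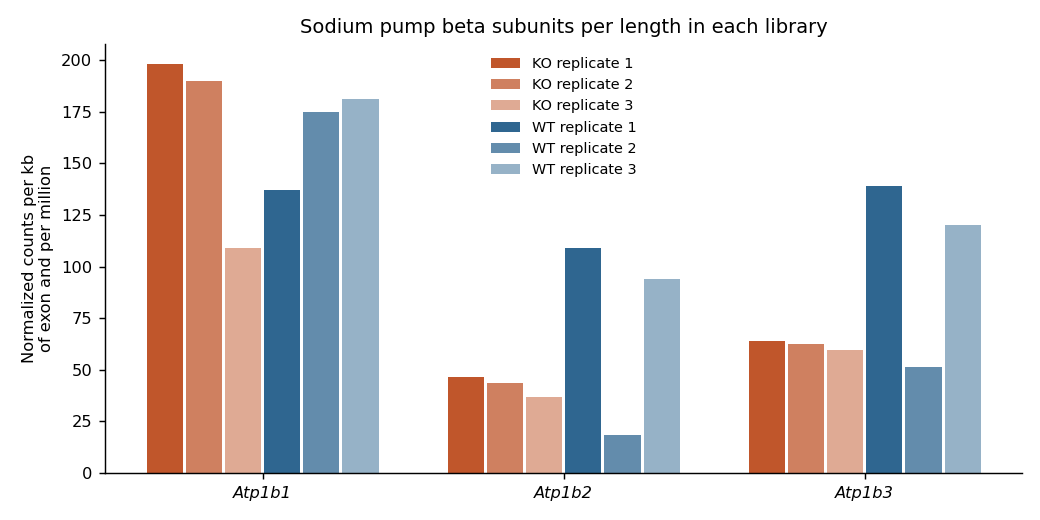
Levels per length (normalized counts per kilobase of exon, scaled to the library total, y axis from 0) of the sodium pump beta subunit genes in each library. Each bar is 1 library, *Nhe6*-knockout (KO) in red shades and wildtype (WT) in blue shades. *Atp1b2* and *Atp1b3* were higher in WT replicates 1 and 3 than in the other 4 libraries, whereas *Atp1b1* did not separate them.

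Among the 13 listed sodium pump subunits and FXYD regulators, 6 had enough counts to be tested. EdgeR's test on 6 libraries called 0 of them, and 1 had an unadjusted p under 0.05 (*Fxyd5*, lower), against 1596 of all 13479 genes. Of the 6, 5 lay below 0, as did 6998 of all genes, and the median log2 fold change was -0.64. *Fxyd5*, which encodes a modulator of the pump also named dysadherin, had 3537, 3401 and 2472 normalized counts in *Nhe6*-knockout and 5474, 4532 and 3652 in wildtype cells. Its genotypes did not overlap, with a log2 fold change of -0.54 (SE 0.21, adjusted p = 0.392 in edgeR). Non-overlap was found for 1 of the 6 genes and for 19.9% of all genes. With wildtype replicate 2 left out, 2 of the 6 were called, both lower in *Nhe6*-knockout cells (*Atp1b2* and *Atp1b3*), where 2.88% of all genes were called. With *Nhe6*-knockout replicates 1 and 2 also summed, 0 were called.

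*Wnk1* (chromosome 6, 119923969 to 120038672, minus strand), the kinase at the head of the cascade, had 17789, 17613 and 20359 normalized counts in *Nhe6*-knockout and 14632, 44649 and 21753 in wildtype cells. Wildtype replicate 2 was far above the other 5 libraries, and the lowest library was also wildtype. On 6 libraries the log2 fold change was -0.54 (SE 0.41, 95% confidence interval -1.52 to 0.44, adjusted p = 0.668 in edgeR). Leaving out wildtype replicate 2 gave 0.03 (SE 0.20, adjusted p = 0.962). The pseudogene *Gm16199* overlaps *Wnk1* on the opposite strand, and *Mir706* overlaps it on the same strand.

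*Stk39* (chromosome 2, 68210445 to 68472268, minus strand), which encodes the kinase that acts on the cotransporters directly, had 2019, 1996 and 1972 normalized counts in *Nhe6*-knockout and 2961, 1768 and 3317.5 in wildtype cells. The *Nhe6*-knockout values lay within a narrow band, with wildtype replicate 2 just below it and the other wildtype replicates well above it. This gave a log2 fold change of -0.43 (SE 0.23, 95% confidence interval -0.99 to 0.14, adjusted p = 0.542 in edgeR), and the exact permutation p was 0.4. Without wildtype replicate 2 it was -0.66 (SE 0.11, adjusted p = 0.0419). With *Nhe6*-knockout replicates 1 and 2 also summed, the value was -0.66 (SE 0.16) and the adjusted p was 0.211.

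**Figure D4:**
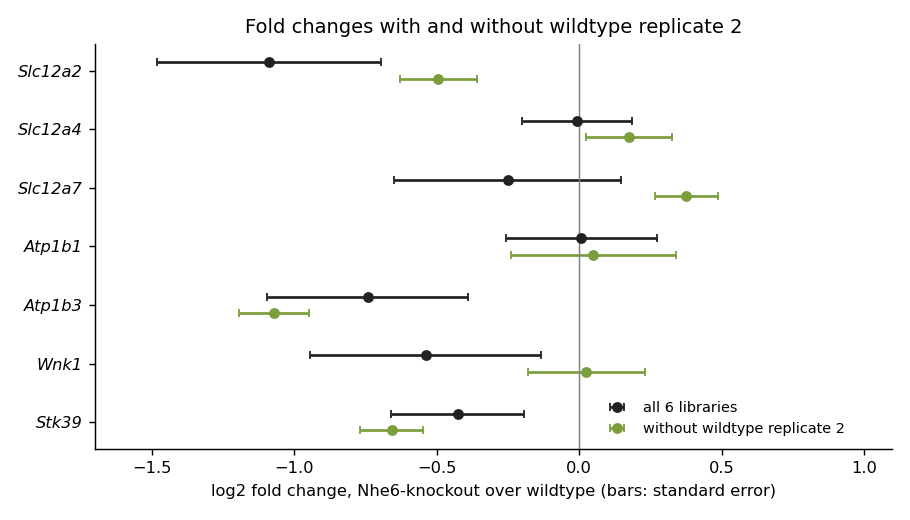
Log2 fold changes of the 7 genes (x axis, *Nhe6*-knockout over wildtype, 0 marked by a vertical line) from edgeR, with all 6 libraries in black and without wildtype replicate 2 in green. Horizontal bars are standard errors. Leaving out the library brought *Slc12a2* from -1.09 to -0.49 and *Wnk1* from -0.54 to 0.03, took *Slc12a7* from -0.25 to 0.38, and took *Atp1b3* from -0.74 to -1.07.

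All 16 listed genes of the WNK and SPAK or OSR1 kinases and their regulators were tested, and edgeR called 0 of them on 6 libraries. At an unadjusted p under 0.05 there was 1 (*Oxsr1*, lower), against 1596 of all 13479 genes. Of the 16, 12 lay below 0, as did 6998 of all genes, and the median log2 fold change was -0.20. *Oxsr1*, which encodes OSR1, had 1288, 1272 and 1485 normalized counts in *Nhe6*-knockout and 1548, 1764 and 1797 in wildtype cells. The genotypes did not overlap, with a log2 fold change of -0.34 (SE 0.12, adjusted p = 0.367 in edgeR). *Cab39*, which encodes MO25, the scaffold that activates SPAK and OSR1, also did not overlap, but its log2 fold change was -0.14 (SE 0.10, adjusted p = 0.662). Non-overlap was found for these 2 of the 16 genes and for 19.9% of all genes. With wildtype replicate 2 left out, *Stk39* and *Ppp1r1a*, which encodes an inhibitor of protein phosphatase 1, were called lower (2 of 16, against 2.88% of all genes), and with *Nhe6*-knockout replicates 1 and 2 also summed, 0 were called. *Ppp1r1a* had 81.7, 76.2 and 67.2 normalized counts in *Nhe6*-knockout and 221, 4.13 and 201 in wildtype cells, again with wildtype replicate 2 below the *Nhe6*-knockout cultures.

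Of the 8 listed Slc12 genes, 6 were tested and 0 called by edgeR on 6 libraries or without wildtype replicate 2. On 6 libraries *Slc12a2* was the 1 gene with an unadjusted p under 0.05, against 1596 of all 13479 genes. Of the 6, 4 lay below 0, as did 6998 of all genes, and the median log2 fold change was -0.13. Without wildtype replicate 2 the lean turned, with 2 below 0, 4 above 0 and a median of 0.20.

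**Figure D5:**
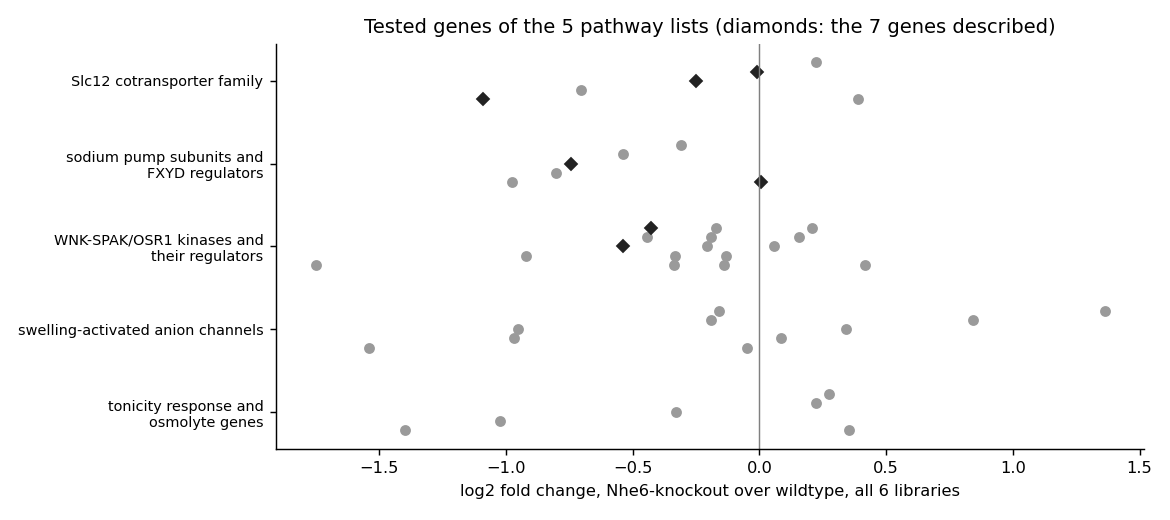
Log2 fold changes (x axis, *Nhe6*-knockout over wildtype, all 6 libraries, edgeR) of every tested gene of 5 gene lists, 1 point per gene, with diamonds for the 7 genes described. Vertical offsets within a list only keep points apart. No point passed an adjusted p under 0.05. Most points of the upper 3 lists lie left of 0, as do 6998 of all 13479 genes tested. Without wildtype replicate 2 (not drawn), 2 of the 6 tested Slc12 genes lay below 0.

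The order of the 6 libraries divided the 7 genes. The profile of each gene was taken as its log2 library-scaled counts less its own mean over the libraries, and likeness as the root mean square difference between profiles. *Atp1b3* and *Stk39* were the closest of the 7 genes (0.236), followed by *Slc12a7* and *Wnk1* (0.261) and by *Slc12a4* and *Slc12a7* (0.323). *Slc12a7* and *Atp1b3* were farthest apart (0.950). The first pair was high in wildtype replicates 1 and 3, and the second was high in wildtype replicate 2.

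Among 11126 candidate genes that averaged 100 normalized counts or more, *Dock9* (0.136), *Cdkl2* (0.143), *Anxa5* (0.146), *Gng11* (0.157) and *Acp6* (0.157) were nearest to *Slc12a2*. *Anxa5*, which encodes the phospholipid-binding protein annexin A5, had 12920 to 15572 normalized counts in *Nhe6*-knockout cells and 18997, 48108 and 16201 in wildtype cells, the same order of wildtype cultures as *Slc12a2*. The nearest genes to *Atp1b3* were *Tmem62* (0.0872) and *Sord* (0.114), and those to *Stk39* were *Rnf130* (0.0181) and *Nucb2* (0.0554). *Slc12a7* was nearest to *Tpmt* (0.0482) and *Cat* (0.0494), *Wnk1* to *Entpd5* (0.0529) and *Mdfic* (0.0561), *Slc12a4* to *Rnf41* (0.0357) and *Adrbk1* (0.0451), and *Atp1b1* to *Dennd4c* (0.107) and *9430020K01Rik* (0.118). A small difference says only that the libraries fell in a like order and size, over 6 libraries of which 1 stood apart.

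Marker lists of other cells were set beside these values. Summed normalized counts of 10 mural cell markers were 22079 to 24337 in *Nhe6*-knockout cells and 16261, 35231 and 18437 in wildtype replicates 1 to 3. The list did not move as a whole, since 3 of the 10 (*Acta2*, *Tagln* and *Cspg4*) were highest in wildtype replicate 2 and 4 (*Pdgfrb*, *Rgs5*, *Des* and *Abcc9*) were lowest there. *Acta2* had 16267 in that library against 29.3 to 1204 elsewhere, and *Pdgfrb* had 7789.7 against 14678 to 18983 elsewhere.

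The 10 fibroblast markers summed to 228493 to 262048 in *Nhe6*-knockout and 224592, 298251 and 179234 in wildtype cells. Of these, 4 were highest and 5 lowest in wildtype replicate 2, among them *Col1a1* (27174 against 207 to 1227 elsewhere) and *Lum* (1155 against 2857 to 7557 elsewhere). The 14 endothelial markers summed to 16875 to 25933 in *Nhe6*-knockout and 23640.0, 15983 and 23585 in wildtype cells. *Emcn* alone had 9896 to 18385 in *Nhe6*-knockout and 13407, 409 and 14723 in wildtype cells. The sum was thus mostly *Emcn* in every library but wildtype replicate 2. The endothelial markers were divided as well, with 7 highest in wildtype replicate 2 (*Cdh5*, *Flt1*, *Cd34* and *Tek* among them) and 4 lowest there (*Emcn* and *Eng* among them).

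The 9 macrophage markers in the table summed to 1288 to 3257 in *Nhe6*-knockout and 3194, 91.8 and 1755 in wildtype cells, and all 9 were lowest in wildtype replicate 2, the library where *Atp1b3* and *Stk39* were lowest. The 8 melanocyte markers summed to 399 to 708 and to 840, 286 and 1148, and 4 of them were lowest there. Of 12 cell cycle genes, 11 (all but *Pcna*) did not overlap between the genotypes, against 19.9% of all genes. Sums of the 12 genes were 7212 to 13278 in *Nhe6*-knockout and 2018 to 3123 in wildtype cells. Their median log2 fold change was 2.74. At an unadjusted p under 0.05 in edgeR 11 were higher, as were 827 of all 13479 genes. EdgeR called 0 of the 12 on 6 libraries and 9 without wildtype replicate 2, where it called 2.88% of all genes. DESeq2 called 11, where it called 4.69% of all genes, and edgeR called 0 with *Nhe6*-knockout replicates 1 and 2 summed. The part of cell makeup or growth in the values of the 7 genes was not tested.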

How the data were processed

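The authors deposited raw read counts per gene symbol for 6 libraries, 3 per genotype, from poly(A)-enriched stranded libraries sequenced for 75 cycles. The submitters' processing notes name mm10, STAR 2.7.7a, HTSeq 0.13.5 and DESeq2 1.26.0, and the annotation and strand setting were not given in the sources used here. Summary lines that name no gene held 22.2% of reads and were left out. Genes were filtered with filterByExpr (minimum count 10), which left 13479 of 24421. Counts were normalized by TMM (factors 0.976 to 1.03) and the genotypes compared with the two-sided quasi-likelihood method of edgeR (4.0.16, run in R 4.3.3), with genotype as the only term and Benjamini-Hochberg adjustment over all genes tested. An adjusted p under 0.05 counted as a call. Normalized counts are scaled to the mean library size, and the standard error is the log2 fold change divided by the square root of F.

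Exon lengths and positions came from GENCODE M21 (GRCm38) and promoter windows from RefSeq (GRCm38.p6). Alternatives were DESeq2 1.42.0, limma-voom (limma 3.58.1), other normalizations and filters, a replicate block, each library left out in turn, and, chosen after seeing the data, *Nhe6*-knockout replicates 1 and 2 summed. Replicate numbers were not treated as pairs in the main fit. P-values measure the spread between 3 libraries per genotype, treated as independent cultures, and counting error is small at these depths. The 7 genes, the gene lists and the tests were chosen with earlier results of these data known. The text names the 7 genes, listed pathway and marker genes and the nearest profiles, 5 for *Slc12a2* and 2 for each other gene. Some genes, among them the targeted one, are not reported here and were taken out of the lists and ratios.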

Additional observations from a re-analysis of the deposited data

How the results depend on the processing

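Among 15 alternatives, *Slc12a2* kept its direction in all (log2 fold change -1.37 to -0.49, adjusted p 0.117 to 0.889) and was never called. *Atp1b3* lay between -1.08 and -0.48 (adjusted p 0.0229 to 0.947) and *Stk39* between -0.66 and -0.25 (adjusted p 0.0419 to 0.974), each called in 1 alternative, the fit without wildtype replicate 2. Leaving out 1 library at a time gave -1.07 to -0.48 for *Atp1b3*, -0.66 to -0.25 for *Stk39*, -0.18 to 0.18 for *Slc12a4*, -0.50 to 0.38 for *Slc12a7*, -0.14 to 0.23 for *Atp1b1* and -0.84 to 0.0252 for *Wnk1*. For the last 4 genes the sign also changed elsewhere. *Slc12a4* was 0.0284 with upper-quartile normalization, 0.019 with limma-voom, 0.0183 with the replicate block, 0.00857 with *Nhe6*-knockout replicates 1 and 2 summed, and 0.20 with wildtype replicate 2 also left out. *Atp1b1* was -0.00682 without a filter, -0.029 with limma-voom, -0.028 with the replicate block, -0.123 with the summed counts and -0.0775 with wildtype replicate 2 also left out, where *Slc12a7* was 0.36 and *Wnk1* 0.0615.

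Over all genes, 21 were called without a filter, 21 with at least 10 counts in every library, 627 by DESeq2, 2 with the replicate block, 1 with the summed counts, 1 with those and without wildtype replicate 2, and 0 to 395 when 1 library was left out. Of the 7 genes, 0 to 2 were called when 1 library was left out, the 2 without wildtype replicate 2. The pump list had 0 to 2 calls with a library left out. The anion channel list had 2 by DESeq2 and 0 to 2 with a library left out, and the kinase list 0 to 2. Same-numbered cultures of the genotypes had correlated deviations of 0.198, -0.204 and 0.0937, and 2 of 6 libraries were nearest to their own number. This check cannot exclude a pairing, because *Nhe6*-knockout replicates 1 and 2 were nearly alike and wildtype replicate 2 stood apart. The cause of these changes was not tested.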

Other observations

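Genes of cell volume regulation beyond the 7 were described from 2 further lists. Of 10 swelling-activated anion channel genes, 0 were called by edgeR on 6 libraries, and the median log2 fold change was -0.10. At an unadjusted p under 0.05, 1 was lower and 2 were higher, against 769 lower and 827 higher of all 13479 genes. The genotypes did not overlap for 3 of the 10, against 19.9% of all genes. *Ttyh3*, a tweety family anion channel gene, had 3476, 3743 and 3920.2 normalized counts in *Nhe6*-knockout and 2379, 1617 and 2206 in wildtype cells, without overlap. The log2 fold change came to 0.84 (SE 0.17, adjusted p = 0.117 in edgeR and 0.00165 in DESeq2), and without wildtype replicate 2 it was 0.69 (adjusted p = 0.0431). *Ttyh2* was called by DESeq2 alone (log2 fold change 1.36, adjusted p = 0.211 in edgeR and 0.0127 in DESeq2). *Clcn3*, which encodes an endosomal chloride-proton exchanger, had 539, 578 and 456 normalized counts in *Nhe6*-knockout and 994, 643 and 1406 in wildtype cells. The log2 fold change came to -0.95 (SE 0.29, adjusted p = 0.278 in edgeR), and without wildtype replicate 2 it was -1.20 (adjusted p = 0.0392). With *Nhe6*-knockout replicates 1 and 2 also summed, 0 of the 10 were called. The *Lrrc8* genes of the list went both ways in edgeR on 6 libraries. Log2 fold changes were 0.34 (*Lrrc8a*), -0.97 (*Lrrc8b*), -0.16 (*Lrrc8c*), -1.54 (*Lrrc8d*) and -0.19 (*Lrrc8e*). *Lrrc8d* had 3315 normalized counts in wildtype replicate 2 against 303 to 620 elsewhere.

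Of 8 genes of the tonicity response and of osmolyte transport, 6 were tested and 0 called by edgeR, with a median log2 fold change of -0.05. At an unadjusted p under 0.05 there was 1 (*Slc38a2*, lower), against 1596 of all 13479 genes. The genotypes did not overlap for 2 of the 6, against 19.9% of all genes. Without wildtype replicate 2, 0 were called and the median was 0.24. Of the 6, 5 then lay above 0, as did 6874 of all 13728 genes tested. The counts did not overlap for 5 of the 6 (4 higher, 1 lower), against 38.2% of all genes. *Nfat5*, the transcription factor of the response, had a log2 fold change of 0.22 (adjusted p = 0.815 in edgeR). *Slc6a6*, which encodes the taurine transporter, had 10059, 10093 and 10875 normalized counts in *Nhe6*-knockout and 7514, 49760.1 and 5734.5 in wildtype cells, with wildtype replicate 2 highest and the other wildtype replicates lowest, as for *Slc12a7*. Its log2 fold change was -1.02 (adjusted p = 0.689) with all libraries and 0.64 (adjusted p = 0.0985) without wildtype replicate 2.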
